A study of Mus musculus with 5 samples.

Results

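Desmosomes are the junctions that bind keratinocytes to each other and anchor their keratin filaments. Their adhesive parts are cadherins of 2 families, the desmogleins and the desmocollins, which meet their counterparts on the neighbouring cell. In the outer epidermis desmosomes mature into corneodesmosomes, to which the secreted glycoprotein corneodesmosin is added, and proteases later cut these junctions so that dead cells can be shed. In mouse skin Dsg3 and Dsc3 are known mainly from the lower layers, Dsg1 and Dsc1 from the upper layers, and Dsg4 from the hair follicle.

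The 10 genes described here were Dsg1a, Dsg1b, Dsg1c, Dsg2, Dsg3, Dsg4, Dsc1, Dsc2, Dsc3 and Cdsn (corneodesmosin), chosen by symbol out of 56691 gene IDs with counts. RNA sequencing was done on skin cells of mice at day 28 in 2 groups. The GFP group (3 libraries) held keratinocytes sorted for GFP and labelled Lrig1 positive, with that as the genotype and epidermal stem cells as the cell type. The bulk group (2 libraries) held the unsorted population, labelled WT and basal keratinocytes. The labelled genotype and the sort differ together between the groups and cannot be told apart, although GFP and bulk libraries 1 and 2 carry the same numbers in their titles. All libraries came from back skin. The sources used here name no strain, reporter construct, promoter or sorting gate. The labels do not say that libraries of a group came from separate animals. By the counts of Xist and Ddx3y given below, GFP replicate 3 differed in sex from the other libraries. The p-values measure the spread between these libraries, which may be technical apart from that difference.

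GFP libraries held 71410484 to 89080100 counts each, and bulk libraries 56829330 and 105887450. Lrig1, the gene behind the sort label, was at 210, 226 and 213 CPM (counts scaled to library size, TMM-adjusted) in GFP libraries, against 163 and 155 CPM in bulk libraries. Its log2 fold change of 0.44 ± 0.18 (SE) did not pass edgeR's test (adjusted p = 0.292). Basal layer genes (9 in the list) summed to 35100 to 43770 CPM in GFP libraries, against 22790 and 25930 CPM in bulk libraries. Krt5, Krt14 and Krt15 made up most of these sums. Of the 9, 0 were called higher, against 0.145 percent of all tested genes. In 7 every GFP library lay above both bulk libraries, against 14.6 percent. Spinous layer genes (6) summed to 9629 to 13260 CPM in GFP libraries, against 24050 and 18620 CPM in bulk libraries. Hair shaft genes (12) summed to 43.1 to 55.5 CPM in GFP libraries, against 675 and 795 CPM in bulk libraries, and inner root sheath genes (9) to 66.8 to 75.5 CPM, against 1387 and 2862 CPM, although the bulk libraries are labelled basal. Of the markers of other cell types, 8 of 8 immune genes (summing to 22.7 to 41.2 CPM in GFP libraries, against 309 and 296 CPM in bulk libraries) and 6 of 7 melanocyte genes (10.7 to 17.4 CPM, against 286 and 119 CPM) were called lower. So were 2 of 7 sebaceous genes (191 to 275 CPM, against 489 and 456 CPM, with a median log2 fold change of -0.19) and 2 of 5 endothelial genes (0.573 to 1.27 CPM, against 3.494 and 2.997 CPM). Of these called genes, Tyr (melanocyte) and Tie1 and Cldn5 (endothelial) passed the filter on low counts through the bulk libraries alone. The sums overlapped for fibroblast genes (168, 36.1 and 9.55 CPM, against 196 and 153 CPM), 2 of 6 of which were lower, and for muscle genes (2.82 to 4.24 CPM, against 4.497 and 3.454 CPM), 0 of 4 tested. Of all tested genes, 5.14 percent were called lower. Xist, transcribed from the inactive X, had 53714 counts in GFP replicate 3 and 0 to 8 in the other libraries. Ddx3y, on the Y chromosome, had 62 counts in GFP replicate 3 and 1750 to 4462 in the other libraries. GFP replicate 3 was thus mainly female and the others male. In such bulk RNA, fewer cells of a type and less RNA per cell cannot be told apart.

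Cdsn, Dsg4, Dsc1 and Dsg1b were called lower in GFP-sorted cells, and none of the 10 genes was called higher. The 4 falls ran from 147-fold for Dsg4 to 2.02-fold for Dsg1b. Dsc3, Dsg3 and Dsg2, the members known from basal cells or from many epithelia, did not pass the test, nor did Dsg1a, Dsg1c and Dsc2. Of the 18583 genes tested with edgeR, 5.14 percent were called lower and 0.145 percent higher at an adjusted p under 0.05 (Benjamini-Hochberg). With so few genes called higher, 0 of 10 is no particular trait of these genes. No member was higher at an unadjusted p under 0.05, and the DESeq2 Wald test and limma-voom also called 0 of 10 higher, against 1.01 and 0.199 percent of tested genes. All 10 genes passed the filter on low counts, Dsg4 through the bulk libraries alone, as it had 7, 4 and 9 counts in GFP libraries. Their median log2 fold change was -0.93, against 0.05 over all tested genes. In 5 of the 10 every GFP library lay below both bulk libraries, a pattern seen in 18.5 percent of tested genes, and in 0 of the 10 did every GFP library lie above, against 14.6 percent.

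**Figure D1:**
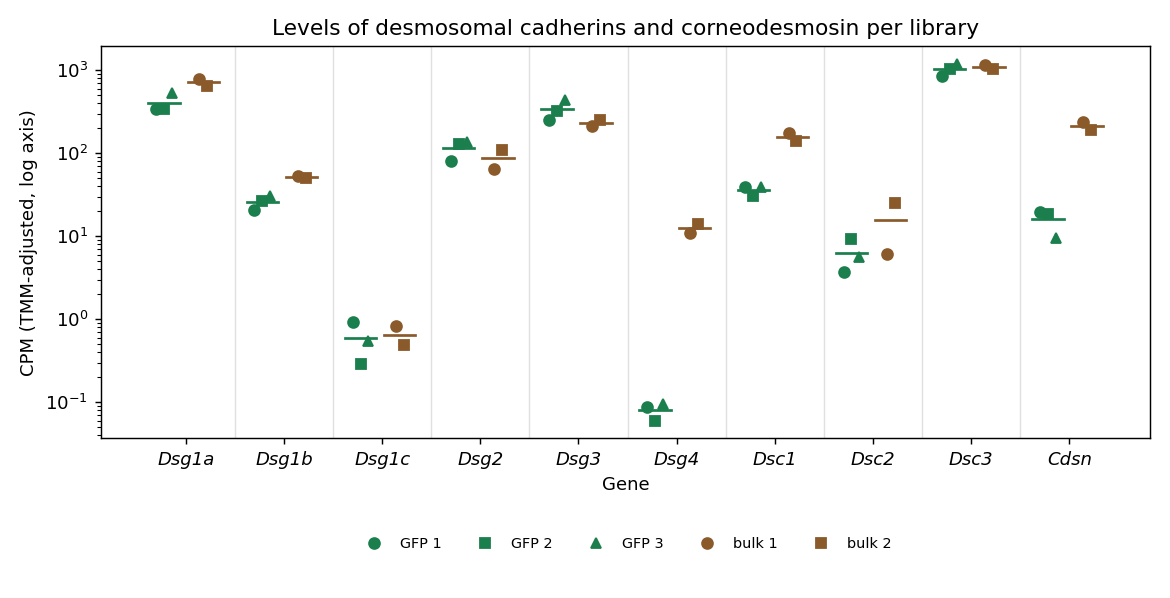
CPM (TMM-adjusted, log axis) of the 10 genes in each of 3 GFP libraries (green) and 2 bulk libraries (brown); bars are group means. GFP and bulk points are far apart for Dsg4, Cdsn and Dsc1 and intermingle for Dsg1c, Dsg2, Dsg3, Dsc2 and Dsc3.

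Among the Dsg1 copies, the desmogleins of the upper layers, Dsg1b fell and Dsg1a and Dsg1c did not pass the test. Dsg1a, by far the most abundant of the Dsg1 copies, was at 336, 341 and 529 CPM in GFP libraries, against 784 and 652 CPM in bulk libraries. The groups did not overlap, and GFP replicate 3 lay closest to the bulk values. GFP replicate 3 was also the only mainly female library, and the part of sex was not tested. The log2 fold change of -0.84 ± 0.27 did not pass (edgeR adjusted p = 0.161), but without GFP replicate 3 it was -1.09 and passed (edgeR adjusted p = 0.0234). It also passed with no filter on low counts (edgeR adjusted p = 0.0276), after removal of the trend with length and GC (0.0365) and in the DESeq2 Wald test (adjusted p = 0.0479).

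Dsg1b was at 20.7, 26.7 and 30.2 CPM in GFP libraries, against 53.7 and 50.8 CPM in bulk libraries. The bulk libraries were close to each other and above every GFP library. Dsg1b fell by 1.02 ± 0.21 on the log2 scale (edgeR adjusted p = 0.03). Leaving out either bulk library ended this call (edgeR adjusted p = 0.176 without the first and 0.142 without the second), and so did leaving out GFP replicate 1 (0.0731) or 2 (0.0884), although the log2 fold change stayed between -1.07 and -0.88 there.

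Dsg1c was near the limit of detection, with 74, 19 and 51 counts in GFP libraries, against 49 and 54 counts in bulk libraries. These counts overlapped, and the log2 fold change was -0.13 ± 0.56 (edgeR adjusted p = 0.936).

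Dsg1a, Dsg1b and Dsg1c are neighbouring copies of a gene that is single in humans, and reads common to the copies may have been split or dropped in counting, so their separate values are uncertain. Summed, they gave 358, 368 and 560 CPM in GFP libraries, against 839 and 703 CPM in bulk libraries. The log2 fold change of the sum was -0.85 ± 0.27 (edgeR adjusted p = 0.151, and 0.0233 without GFP replicate 3). Within the sum the shares of each copy overlapped between the groups. Dsg1a gave 92.7 to 94.5 percent of Dsg1 counts in GFP libraries and 92.7 and 93.5 percent in bulk libraries, and Dsg1b gave 5.39 to 7.26 percent in GFP libraries and 6.41 and 7.23 percent in bulk libraries. The few Dsg1c counts gave 0.262, 0.0779 and 0.0976 percent in GFP libraries and 0.0976 and 0.0689 percent in bulk libraries.

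Of 6 spinous layer genes, 2 fell beside Dsg1b (Sbsn and Dmkn), and the list's median log2 fold change was -0.90. In 5 of those 6 every GFP library lay below both bulk libraries. Of all tested genes, 5.14 percent were called lower and 18.5 percent had that pattern. None of the 6 spinous layer genes was at 0 in any library. The part of this difference in the Dsg1 values was not tested.

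Dsg3, the desmoglein of the lower layers and the autoantigen of pemphigus vulgaris in humans, was at 249, 320 and 440 CPM in GFP libraries, against 214 and 250 CPM in bulk libraries. Only GFP replicate 1 fell within the bulk range. The log2 fold change was 0.54 ± 0.28 (edgeR adjusted p = 0.411).

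Dsg2, the desmoglein found in simple epithelia and heart as well as skin, was at 81.0, 128 and 136 CPM in GFP libraries, against 64.7 and 109 CPM in bulk libraries. The groups overlapped, and the bulk libraries differed from each other more than the group means did. The log2 fold change was 0.41 ± 0.30 (edgeR adjusted p = 0.58), 0.08 without bulk replicate 1 and 0.82 without bulk replicate 2. Among the 10 genes it was the only one whose exons overlap another gene in the annotation used, Gm16090 on the opposite strand, which had at most 78 counts in any library.

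Dsg4, the desmoglein of the hair follicle, whose loss gives brittle hair in lanceolate hair mice, was nearly undetected in GFP libraries. It had 7, 4 and 9 counts in GFP libraries, against 663 and 1542 counts in bulk libraries. As CPM these were 0.0887, 0.0603 and 0.0964 in GFP libraries, against 11.1 and 13.8 in bulk libraries, so every GFP library lay far below both bulk libraries. Dsg4 fell by 7.20 ± 0.34 on the log2 scale (edgeR adjusted p = 5.3e-05), a 147-fold lower level.

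Hair shaft genes moved with Dsg4. Of 12 tested, 11 fell and 11 had every GFP library below both bulk libraries, against 5.14 and 18.5 percent of all tested genes. The median log2 fold change of the list was -6.67. The cortex keratin genes Krt33b and Krt34 had 0 counts in GFP replicate 2. Like Dsg4, Krt33b, Krt34, Krt81 and Krt86 passed the filter on low counts through the bulk libraries alone. Of 9 inner root sheath genes, 9 fell, with a median of -5.48, and Krt26 among them passed the filter in the same way. The part of these cells in the Dsg4 difference was not tested.

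**Figure D2:**
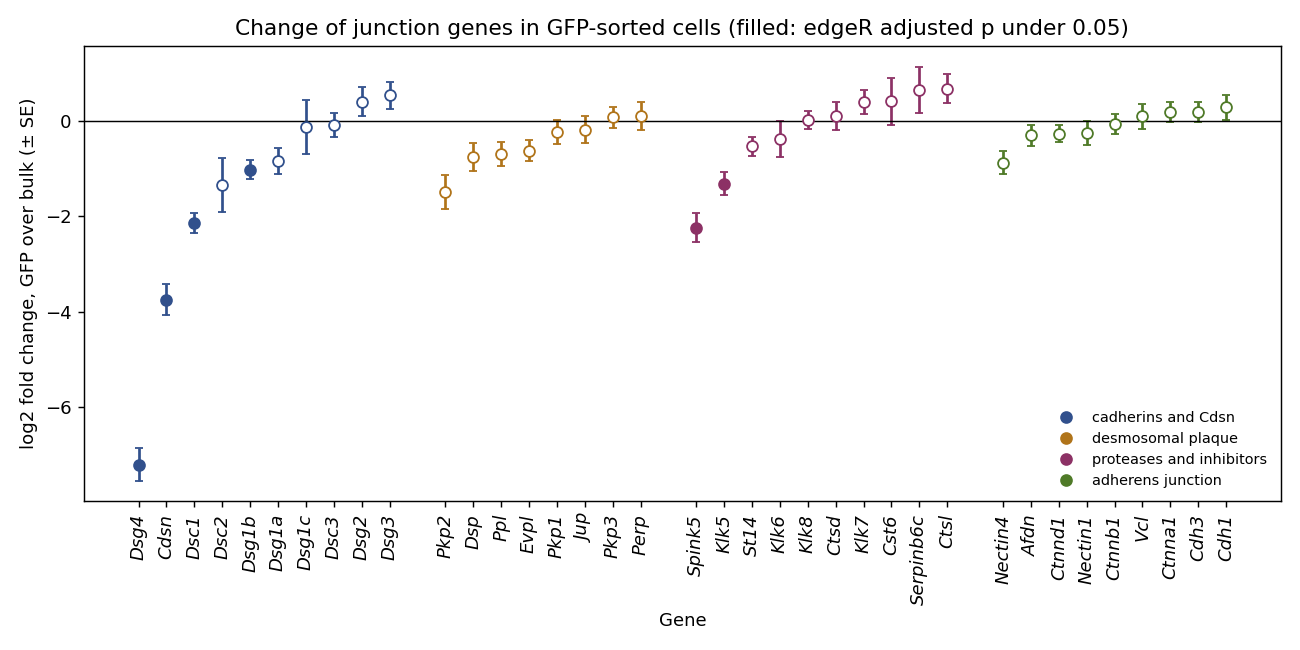
Log2 fold changes (GFP over bulk, ± SE, edgeR) of the 10 genes, 8 plaque genes, 10 proteases and inhibitors and 9 adherens junction genes; filled points passed at an adjusted p under 0.05. The filled points are Dsg4, Cdsn, Dsc1 and Dsg1b among the 10 genes, and Spink5 and Klk5 among the others.

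Among the desmocollins, Dsc3 was the most abundant and did not pass the test. It was at 845, 1017 and 1192 CPM in GFP libraries, against 1147 and 1019 CPM in bulk libraries. The bulk values lay inside the GFP range. The log2 fold change was -0.09 ± 0.25 (edgeR adjusted p = 0.899), with the sign changed without bulk replicate 1 (0.00155) or GFP replicate 1 (0.03).

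Dsc1, the desmocollin of the upper layers, was at 38.7, 30.1 and 39.1 CPM in GFP libraries, against 175 and 142 CPM in bulk libraries. The libraries of each group were close together and the groups far apart. Dsc1 fell by 2.14 ± 0.20 on the log2 scale (edgeR adjusted p = 8.89e-04), a 4.40-fold lower level.

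Dsc2, a desmocollin of many epithelia, was scarce and uneven. It was at 3.68, 9.37 and 5.57 CPM in GFP libraries, against 6.19 and 25.2 CPM in bulk libraries. Bulk replicate 2 stood above all others, while bulk replicate 1 lay within the GFP range. The log2 fold change was -1.34 ± 0.57 (edgeR adjusted p = 0.305). It was -0.01 without bulk replicate 2 and -2.02 without bulk replicate 1.

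Cdsn encodes corneodesmosin, which is secreted by granular cells and strengthens corneodesmosomes until kallikreins cut it. Cdsn was at 19.8, 18.7 and 9.58 CPM in GFP libraries, against 240 and 189 CPM in bulk libraries. Every GFP library lay below both bulk libraries, GFP replicate 3 lowest. Cdsn fell by 3.74 ± 0.33 on the log2 scale (edgeR adjusted p = 6.3e-04), a 13.4-fold lower level.

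Granular layer genes were mixed beside it. Of 11 tested, 6 fell and 0 rose, against 5.14 and 0.145 percent of all tested genes, with a median log2 fold change of -1.25. In 8 every GFP library lay below both bulk libraries, against 18.5 percent. Their sum was 897 to 1325 CPM in GFP libraries, against 1640 and 1533 CPM in bulk libraries, and Sprr1a made up most of it. None of the 11 was at 0 in any library. Hrnr, 1 of the 6 that fell, passed the filter on low counts through the bulk libraries alone. The part of granular layer genes in the Cdsn difference was not tested.

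Cdsn, which had the largest fall after Dsg4, was the only one of the 10 genes whose promoter was examined. Its upstream sequence was taken from the RefSeq table used, and promoters of the other members were not examined. The table gives 2 start sites for Cdsn. The 250 bases before the start that also begins the GENCODE transcript, on the plus strand at chr17:35551878-35552127 (GRCm38.p6, an earlier build than the GRCm39 named for the counts), read as follows, with motif matches in capitals.
Cdsn: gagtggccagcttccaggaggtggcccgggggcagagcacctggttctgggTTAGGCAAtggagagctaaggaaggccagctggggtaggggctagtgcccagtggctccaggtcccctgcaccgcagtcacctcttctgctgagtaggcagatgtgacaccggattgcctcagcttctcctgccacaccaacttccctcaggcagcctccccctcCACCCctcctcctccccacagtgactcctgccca
Searches covered TGANTCA (AP-1), CACCC, TTGCNNAA (C/EBP), AACNGGTT (grainyhead), TATAAA and CTTTGNT (TCF/LEF) on both strands. There was 1 match to TTGCNNAA, read on the minus strand and starting at position -199 from the start site, and 1 to CACCC, starting at -34. They did not overlap. The other letters had no match in this window, and the window of the other start site had none for any motif. Of 32851 such windows in the table, 9.56 percent held TTGCNNAA, 52 percent CACCC, 6.75 percent TGANTCA, 1.79 percent AACNGGTT, 12.4 percent TATAAA and 16 percent CTTTGNT. These matches describe letters and do not show binding.

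Levels of different genes were compared per kilobase of the longest annotated transcript (CPM per kb, library size scaling). In GFP libraries the order was Dsc3 (186 ± 44.5, SD, n = 3), Dsg1a (69.3 ± 24.5), Dsg3 (53.0 ± 19.1), Dsg2 (19.4 ± 5.97), Dsc1 (8.54 ± 1.60), Dsg1b (6.35 ± 1.58), Cdsn (5.70 ± 1.70), Dsc2 (1.29 ± 0.571), Dsg1c (0.139 ± 0.0736) and Dsg4 (0.0229 ± 0.0065). Libraries overlapped between the neighbours Dsg1a and Dsg3, Dsc1 and Dsg1b, and Dsg1b and Cdsn, and not between the other neighbours. In bulk libraries it was Dsc3 (214 ± 17.8, SD, n = 2), Dsg1a (133 ± 17.3), Cdsn (84.4 ± 14.1), Dsc1 (40.8 ± 6.03), Dsg3 (39.3 ± 4.34), Dsg2 (15.8 ± 5.68), Dsg1b (13.9 ± 0.550), Dsg4 (3.77 ± 0.589), Dsc2 (3.56 ± 3.05) and Dsg1c (0.168 ± 0.0609). There the neighbours Dsc1 and Dsg3, Dsg2 and Dsg1b, and Dsg4 and Dsc2 overlapped. Dsc3 was first in both groups, and Cdsn stood between Dsg1b and Dsc2 in GFP libraries and between Dsg1a and Dsc1 in bulk libraries.

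Shares of counts within each family were compared between the groups without a test. Those given below did not overlap between the groups, while those of Dsg1c and Dsc2 did. Shares within a family depend on each other, as a lower share of a gene raises the others. Dsg1 copies together gave 52.0, 45.1 and 49.3 percent of desmoglein counts in GFP libraries, against 74.4 and 65.4 percent in bulk libraries. Dsg3 gave 36.2, 39.3 and 38.7 percent in GFP libraries, against 18.9 and 23.2 percent in bulk libraries. Dsg4 gave 0.0129 percent or less in GFP libraries, against 0.982 and 1.29 percent in bulk libraries. Among desmocollins, Dsc1 gave 4.36, 2.85 and 3.16 percent in GFP libraries, against 13.2 and 12.0 percent in bulk libraries. The summed CPM of the 9 cadherins was 1575, 1872 and 2373 in GFP libraries, against 2456 and 2261 in bulk libraries, so that the sums overlapped at GFP replicate 3.

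**Figure D3:**
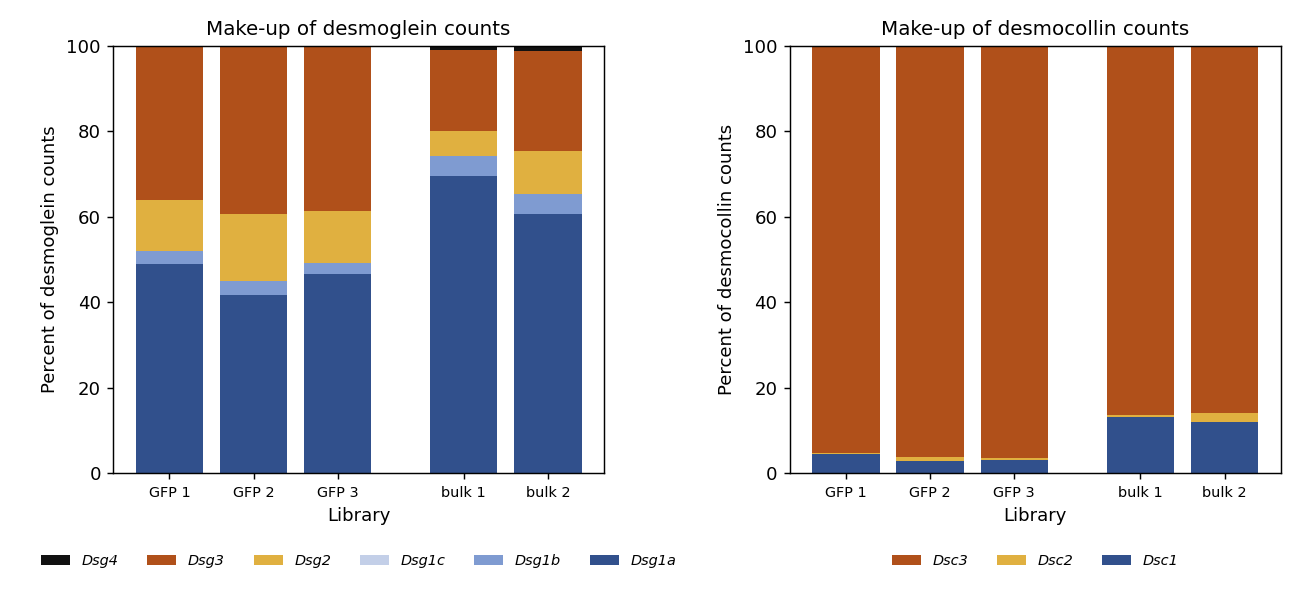
Percent of desmoglein counts (left) and desmocollin counts (right) from each gene in 3 GFP and 2 bulk libraries. Dsg3 takes 36.2 to 39.3 percent of desmoglein counts in GFP libraries and 18.9 and 23.2 percent in bulk libraries, and Dsc3 takes over 85 percent of desmocollin counts in every library.

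Ratios of counts within a library, which do not depend on scaling between libraries, were compared for 6 pairs of genes. The log2 ratio of summed Dsg1 over Dsg3 was 0.53, 0.20 and 0.35 in GFP libraries, against 1.97 and 1.49 in bulk libraries, a difference of -1.38. For Dsc1 over Dsc3 it was -4.45, -5.08 and -4.93 in GFP libraries, against -2.71 and -2.85 in bulk libraries, a difference of -2.04. For Dsg4 over Dsg3 the difference was -7.77. In these 3 ratios all GFP libraries lay below both bulk libraries.

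Cdsn was also lower relative to the Dsg1 copies. The log2 ratio of Cdsn over summed Dsg1 was -4.17, -4.30 and -5.87 in GFP libraries, against -1.80 and -1.89 in bulk libraries, a difference of -2.93. The groups did not overlap. By contrast Dsg2 over Dsg3 was -1.62, -1.33 and -1.69 in GFP libraries, against -1.72 and -1.20 in bulk libraries, with overlap. Dsc2 over Dsc3 overlapped too, with a difference of -1.01 that was -2.11 without bulk replicate 1 and 0.09 without bulk replicate 2. With 3 libraries against 2, an exact two-sided permutation test cannot go below p = 0.1, which the 4 ratios without overlap reached (0.15 adjusted over the 6). It gave p = 0.4 for Dsc2 over Dsc3 and 0.7 for Dsg2 over Dsg3 (exact).

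**Figure D4:**
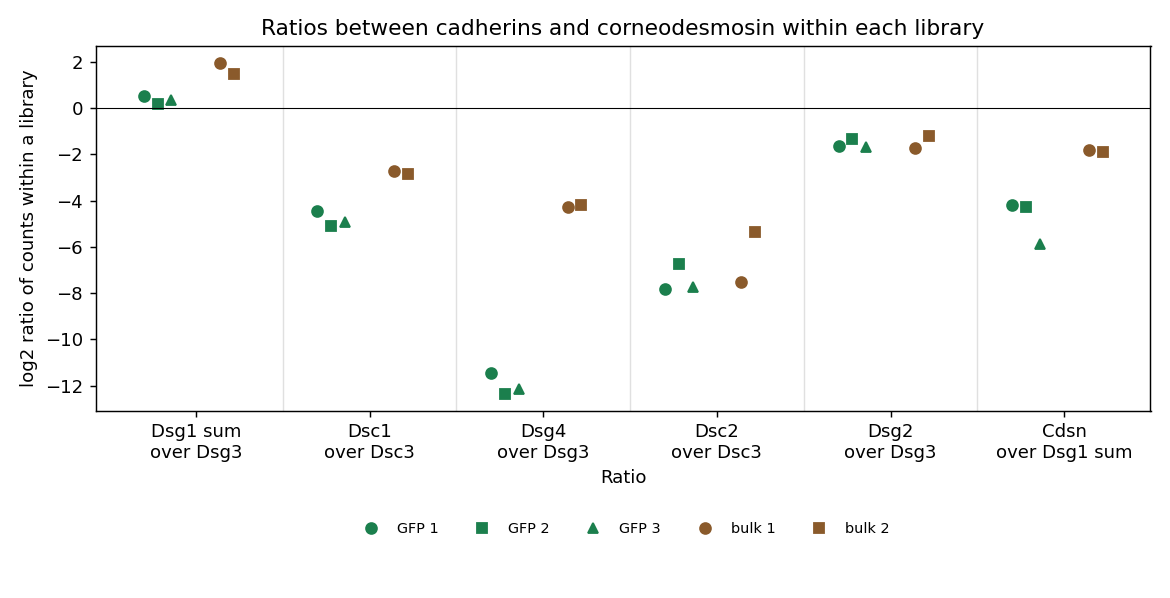
Log2 ratios of counts between genes within each of 3 GFP (green) and 2 bulk (brown) libraries. GFP points lie below both bulk points for Dsg1 sum over Dsg3, Dsc1 over Dsc3, Dsg4 over Dsg3 and Cdsn over Dsg1 sum, and overlap them for Dsc2 over Dsc3 and Dsg2 over Dsg3.

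The genes whose profile over the 5 libraries was most like that of each member were found by the root mean square difference of centred log2 CPM, among 10875 candidates whose log2 CPM averaged 1 or more. Dsg4 and Dsg1c averaged less, so genes as scarce as they could not be named beside them. Over 5 libraries and so many candidates a close profile is to be found by number alone, and shared regulation was not tested. Nearest to Cdsn were Nccrp1, Dkkl1 and Wfdc5 (0.156, 0.195 and 0.298). Nccrp1 was at 5.79, 5.61 and 3.72 CPM in GFP libraries, against 86.7 and 63.0 CPM in bulk libraries. Nearest to Dsg4 were the hair keratin genes Krt33a and Krt31 and then Prr9 (0.262, 0.274 and 0.546). Krt33a was at 1.24, 0.739 and 0.910 CPM in GFP libraries, against 98.8 and 89.6 CPM in bulk libraries. Nearest to Dsc1 were Xkrx, Hoxc13, a transcription factor of the hair follicle, and Abca5 (0.113, 0.156 and 0.163).

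Dsg3 was nearest to Cd44 (0.0293), the hyaluronan receptor gene, at 227, 290 and 409 CPM in GFP libraries, against 197 and 240 CPM in bulk libraries. Dsg2 was nearest to the NF-kappa-B subunit gene Nfkb2 (0.0530), and Dsc3 to Tab2 (0.0316). Dsg1a was nearest to Pak3 (0.0464) and Dsg1b to Eps8l1 (0.0370), which fell by 1.01 on the log2 scale (edgeR adjusted p = 0.0226). Dsc2 had its nearest gene, Spon1, at 0.258, and Dsg1c, with few counts, had Casp1 at 0.108. Among the 10 genes themselves the closest pairs were Dsg1a with Dsg1b (0.182) and Dsg2 with Dsg3 (0.209), and the farthest was Dsg3 with Dsg4 (3.63).

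**Figure D5:**
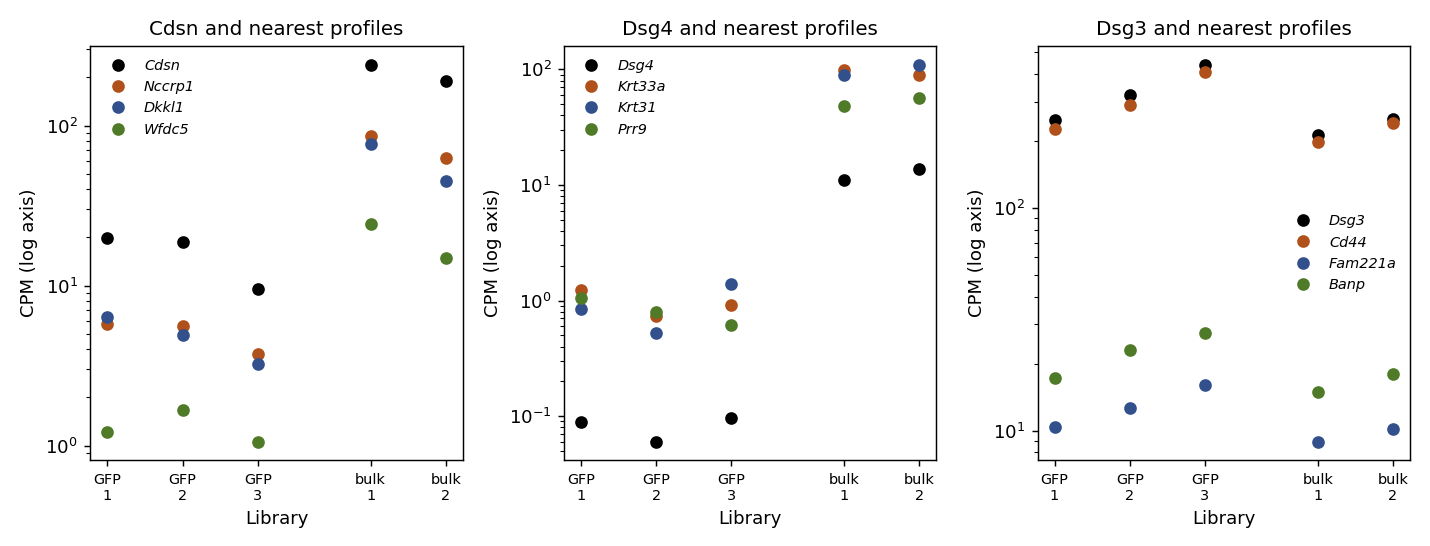
CPM (log axis) of Cdsn, Dsg4 and Dsg3 (black) and of the 3 genes with the nearest profile (colours) in 3 GFP and 2 bulk libraries. Cd44 lies just under Dsg3 in all 5 libraries, and Krt33a, Krt31 and Prr9 share the gap between GFP and bulk seen for Dsg4 at higher CPM.

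For 7 genes of the plaque, which ties the cadherins to keratin, and Perp, which encodes a membrane protein of desmosomes, edgeR called 0 of 8 tested, against 5.14 percent of all tested genes called lower. At an unadjusted p under 0.05 there were 4, all lower, and the share of all tested genes at that threshold is not given here. The DESeq2 Wald test called Dsp, Evpl and Pkp2 lower, against 7.05 percent of tested genes. Limma-voom called Pkp2 lower, against 5.32 percent of tested genes. In 5 of the 8 every GFP library lay below both bulk libraries, against 18.5 percent of tested genes, and the median log2 fold change was -0.43. Pkp2, a plakophilin of simple epithelia and heart, was at 0.697, 0.618 and 0.525 CPM in GFP libraries, against 1.52 and 1.91 CPM in bulk libraries, close to the threshold (-1.49 ± 0.35, edgeR adjusted p = 0.0546). The envelope-linked plakins Evpl and Ppl had log2 fold changes of -0.62 ± 0.21 and -0.69 ± 0.26 (edgeR adjusted p = 0.191 and 0.228). Dsp, desmoplakin, named after its values were seen, was at 2590, 2845 and 3662 CPM in GFP libraries, against 4766 and 5428 CPM in bulk libraries (-0.75 ± 0.29, edgeR adjusted p = 0.254). With the length and GC trend of each library removed, the log2 fold changes were -0.32 for Evpl, -0.44 for Ppl and -0.36 for Dsp, and Pkp2 passed (-1.52, edgeR adjusted p = 0.0411).

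Among the proteases that cut corneodesmosomes and their inhibitors, 2 of 10 tested genes fell and 0 rose, with a median of 0.06. Of all tested genes, 5.14 percent were called lower and 0.145 percent higher. Spink5, the inhibitor of kallikreins that is lost in Netherton syndrome in humans, was at 31.5, 31.1 and 45.8 CPM in GFP libraries, against 224 and 116 CPM in bulk libraries. It fell by 2.23 ± 0.31 on the log2 scale (edgeR adjusted p = 0.00484). The kallikrein gene Klk5 was at 61.5, 61.6 and 37.4 CPM in GFP libraries, against 143 and 122 CPM in bulk libraries, and fell by 1.31 ± 0.25 (edgeR adjusted p = 0.0218). The Klk5 call did not hold without bulk replicate 1 or bulk replicate 2 (edgeR adjusted p = 0.141 and 0.0797). Klk7, another kallikrein that cuts corneodesmosin, named after its values were seen, was at 531, 518 and 364 CPM in GFP libraries, against 374 and 341 CPM in bulk libraries (0.40 ± 0.24, edgeR adjusted p = 0.501).

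Of 9 adherens junction genes, which link cells to actin rather than keratin, edgeR called 0, against 5.14 percent of all tested genes called lower. At an unadjusted p under 0.05, 1 was lower, again without a share of all tested genes beside it. DESeq2 called the same gene, Nectin4, against 7.05 percent of tested genes called lower. It was at 105, 170 and 115 CPM in GFP libraries, against 230 and 245 CPM in bulk libraries (-0.87 ± 0.24, edgeR adjusted p = 0.101, and 0.0472 without GFP replicate 2). Afdn and Ctnnd1, the genes with the next smallest p, had log2 fold changes of -0.30 ± 0.21 and -0.26 ± 0.19 (edgeR adjusted p = 0.558 and 0.563). The median of the list was -0.07, against 0.05 over all tested genes.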

How the data were processed

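The deposited table holds raw counts per versioned Ensembl gene ID, 1 column per library, made by the authors with STAR on GRCm39, per the submitters' processing notes. The sources used here give no version, counting tool, annotation release or strandedness. Symbols came from GENCODE M21 (GRCm38) by ID without version, matching 52073 of 56691 IDs, and promoters from RefSeq on GRCm38.p6.

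Genes passing filterByExpr (minimum count 10, minimum total 15) were tested with edgeR 4.0.16 in R 4.3.3 (TMM, quasi-likelihood, two-sided, Benjamini-Hochberg over 18583 genes, 3 residual degrees of freedom). On simulated data for this comparison (12798 genes) 17 percent of the 2-fold changes and 88 percent of the 4-fold changes were called. Chi-square per degree of freedom between libraries of a group was 150.9 to 461.6, so none was a repeat deposit.

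The 10 genes and all lists were chosen with earlier results of these data known. Named genes were the members, called list genes or else the 3 with the smallest p in a list, and the 3 nearest profiles without predicted genes or pseudogenes. The 17 alternatives to the test were the DESeq2 Wald test (1.42.0), limma-voom (limma 3.58.1), scaling by DESeq2 size factors, by upper quartile or by library size alone, no filter, a minimum of 1 CPM in 2 libraries, a library size without mitochondrial and haemoglobin genes, robust dispersion, a replicate block, the length and GC trend of each library removed (loess span 0.3, 18107 genes) with and without the block, and leaving out each library. Of 13 hair shaft symbols 12 were analysed.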

Additional observations from a re-analysis of the deposited data

How the results depend on the processing

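Dsg4, Dsc1 and Cdsn kept their direction and their call in all 17 alternatives, with log2 fold changes of -7.36 to -7.04, -2.29 to -1.98 and -3.93 to -3.44. Dsg1b kept its direction in 17 and lost its call in the 4 named in the report. Leaving out a bulk library leaves 1, which is then assumed to vary like the GFP libraries. Dsg1a was called in 6 alternatives and the Dsg1 sum in the same 6: the DESeq2 Wald test (-0.85 for the sum), no filter (-0.85), the length and GC trend removed (-0.89), the replicate block (-1.08), the block with that trend removed (-0.98), and without GFP replicate 3. Without each library in turn the sum ran from -1.09 to -0.71. Dsc2 was called with no filter (edgeR adjusted p = 7.23e-05) and with the block, with or without the trend (-1.11 in both). In the titles GFP 1 has the number of bulk 1 (4143), GFP 2 that of bulk 2 (4145) and GFP 3 its own (4146). The labels do not say what they number, so the block is an alternative here. Deviations of same-numbered libraries from their group means correlated across genes (r = 0.474, genes not being independent). The block leaves 1 residual degree of freedom. GFP 3, alone with its number, does not enter the group difference in the block. The 2 block fits and the fit without GFP replicate 3 thus estimate that difference from the same libraries. With it, 6 members were lower and 0 higher, against a background of 19.7 and 16.4 percent. With the trend also removed 6 were lower and 2 higher, namely Dsg2 (0.44) and Dsg3 (0.43), against 16.7 and 15.4 percent. The cause was not tested. Calls over all genes numbered 982, against 1499 with the DESeq2 Wald test, 1918 with no filter, 6692 with the block, 5813 with block and trend, and 480 to 1205 without a library. Of the 28 junction partner genes 27 were tested in the main fit, and 2 were called lower, against 5.14 percent of all tested genes. Lower calls numbered 6 with the DESeq2 Wald test (7.05 percent of all tested genes), 4 with no filter (5.06 percent) and 9 with the block (19.7 percent). They numbered 8 with block and trend (16.7 percent) and 2 to 3 without a GFP library (3.89 to 6.22 percent). Higher calls numbered 0 in the main fit, against 0.145 percent of all tested genes. They numbered 3 with the block (16.4 percent) and 5 with block and trend (15.4 percent). Library size alone put the median of all genes at -0.07, against 0.05 with TMM, and left the members' 4 lower and 0 higher calls as they were. Of the ratios, Dsc2 over Dsc3 and Dsg2 over Dsg3 changed sign without bulk replicate 2 (0.09 and 0.18). Counts as low as those of Dsg4 in GFP libraries and of Dsg1c limit their precision.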
